A study of Mus musculus with 12 samples.

Results

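The CC chemokine ligands described here are 10 genes, Ccl2, Ccl3, Ccl4, Ccl5, Ccl6, Ccl7, Ccl8, Ccl9, Ccl12 and Ccl24, out of 53801 genes in the expression tables. They were chosen by gene symbol, each symbol belonged to 1 row, and all 10 passed the filter on low counts that left 14964 genes for testing. RNA was sequenced in bulk from sorted heart macrophages of mice with myocardial infarction, induced by tying off the left anterior descending coronary artery. The groups, with 3 libraries each, were Bhlhe41Cre CCR2low, Bhlhe41Cre CCR2hi, WT CCR2low and WT CCR2hi. Bhlhe41Cre stands for Bhlhe41dTomato-Cre+/-, mice carrying dTomato-Cre in 1 of their Bhlhe41 alleles (Bhlhe41 is a circadian transcriptional repressor gene), and WT for wild type. The labels give C57BL/6N for strain, male for sex and infarction (MI) for treatment in all 4 groups, though label fields of the Bhlhe41Cre samples are shifted. By these labels no uninjured heart is among the groups. Age, the time after infarction and the number of animals behind a library are not stated in the labels, so p-values measure the spread between these libraries, which may be technical.

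CC chemokines are small secreted proteins, named for a pair of adjacent cysteines, that guide leukocytes by binding G protein-coupled receptors called CCRs. In the infarcted heart, monocytes that carry CCR2 enter the wound and give rise to macrophages, while macrophages that settled in the heart before birth carry little CCR2. Several ligands share a receptor: Ccl2, Ccl7 and Ccl12 are ligands of CCR2 in the mouse, Ccl3, Ccl5, Ccl6 and Ccl9 of CCR1, Ccl8 of CCR8 in the mouse, and Ccl24 of CCR3.

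The ligands sit in tight groups in the genome (GENCODE annotation of GRCm38, the assembly also called mm10). On chromosome 11, Ccl2 (chr11:82035571-82037453), Ccl7 (chr11:82045712-82047525), Ccl12 (chr11:82101845-82103400) and Ccl8 (chr11:82115185-82116799) follow each other on the plus strand. After a gap of 1409 kb come Ccl5 (chr11:83525778-83530518), Ccl9 (chr11:83572919-83578636), Ccl6 (chr11:83587882-83593087) and Ccl3 (chr11:83647844-83649355) on the minus strand, and then Ccl4 (chr11:83662584-83664683) on the plus strand. Ccl24 lies apart, on the minus strand of chromosome 5 (chr5:135569937-135573049). All 10 are protein-coding genes with at most 3 or 4 exons. An annotated gene on the opposite strand overlaps Ccl2 (Gm17268, with 0 counts in every library) and Ccl6 (E230016K23Rik, with 5 to 15 counts). Whether the counting used strand is not stated in the labels.

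Of the 5 ligands with an entry in the RefSeq promoter table (GRCm38.p6), the neighbours Ccl12 and Ccl8 are printed because they were the most alike of these promoters, while the ratio of their transcripts differed between the gates and the genotypes, as given further on. Shown are the 250 bases before the annotated start, 5′ to 3′ on the plus strand, at chr11:82101595-82101844 for Ccl12 and chr11:82114935-82115184 for Ccl8. Capitals mark TATAAA, a motif chosen after the sequences were seen.
Ccl12: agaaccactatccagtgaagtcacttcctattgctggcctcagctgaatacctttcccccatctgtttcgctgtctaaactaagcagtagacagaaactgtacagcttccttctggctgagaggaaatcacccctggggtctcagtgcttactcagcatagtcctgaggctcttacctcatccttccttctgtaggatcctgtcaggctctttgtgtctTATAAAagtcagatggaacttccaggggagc
Ccl8: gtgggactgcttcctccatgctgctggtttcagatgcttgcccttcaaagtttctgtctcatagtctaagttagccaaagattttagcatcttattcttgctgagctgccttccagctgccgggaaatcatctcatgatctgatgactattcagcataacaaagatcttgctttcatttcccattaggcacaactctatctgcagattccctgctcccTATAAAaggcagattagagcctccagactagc
In both, TATAAA begins close to the start, 31 bases before it in Ccl12 and 32 in Ccl8. Aligned end to end with gaps, the pair had 62.4% identical bases, against 50.8% to 58.8% in the 9 other pairs of the 5 promoters. Both strands were searched for 4 motifs. TATAAA was found in 3 of the 5 promoters (Ccl8, Ccl9 and Ccl12) and in 12.4% of 32851 mouse promoter windows of this length. CACGTG, the E-box core that BHLHE40 and BHLHE41 bind, was in 0 of 5 and in 6.02% of all windows. A kappa-B frame was in 1 of 5 (Ccl9) and in 45.8% of all windows, and an interferon-stimulated response element in 0 of 5 and in 2.98% of all.

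The libraries held 17702018 to 20826688 counts each, and libraries correlated more within a group (r of 0.98 to 0.994, 12 pairs) than between groups (0.802 to 0.965). Bhlhe41 RNA was 21.1 ± 6.83 CPM (counts scaled to a common library total) in Bhlhe41Cre CCR2low, 7.98 ± 1.35 in Bhlhe41Cre CCR2hi, 35.9 ± 4.70 in WT CCR2low, and 37.4 ± 9.37 for WT CCR2hi (SD, n = 3 each), so it was lower in Bhlhe41Cre in both gates (edgeR adjusted p = 0.0221 and 5.14e-05). Ccr2 RNA was lower in CCR2low than in CCR2hi in WT (log2 fold change -1.06 ± 0.30 SE, adjusted p = 0.00825) and was not called in Bhlhe41Cre (-0.01 ± 0.30, adjusted p = 0.983), while the interaction of gate and genotype was 1.05 ± 0.42 (adjusted p = 0.118). The sorted cells were labelled macrophages, and 17 macrophage identity genes (such as Adgre1, Csf1r and C1qa) made up 3.06% to 3.42% of counts in Bhlhe41Cre CCR2low, 0.851% to 1.12% in Bhlhe41Cre CCR2hi, 3.46% to 3.76% in WT CCR2low, and 0.249% to 0.580% for WT CCR2hi. Fibroblast genes (15, such as Col1a1) ran the other way, at 0.471% to 0.897%, 4.67% to 5.89%, 0.888% to 1.20% and 8.80% to 9.62% in the same order of groups. No gene of these lists was at 0 in any group. Xist had 1403 to 3699 counts in Bhlhe41Cre libraries and 0 to 3 in WT libraries, although the labels give male throughout. Y-linked genes had 1162, 1446 and 105 counts in Bhlhe41Cre CCR2low and 709, 1413 and 182 in Bhlhe41Cre CCR2hi (replicates 1 to 3), against 668 to 897 in WT CCR2low, and 1056 to 1741 for WT CCR2hi, so genotype and the sex of the animals cannot be told apart in any Bhlhe41Cre to WT difference given here.

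Because the macrophage share differs so much between the gates, each ligand is given on 2 scales. The first is CPM, in which every count of a library enters the denominator, with TMM-scaled library sizes, on which the tests were run. The second is counts per 1000 counts of the 17 macrophage identity genes. In bulk RNA fewer cells of a type and less RNA per cell cannot be told apart on either scale.

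Relative to all counts, the ligands as a group were most abundant in Bhlhe41Cre CCR2low and least abundant in WT CCR2hi. Their summed TPM (transcript abundance on a per-library total, which adjusts for gene length and so allows levels of different genes to be compared) were 7609 to 8176 in Bhlhe41Cre CCR2low, 4057 to 4308 in Bhlhe41Cre CCR2hi, 5080 to 6533 in WT CCR2low, and 1237 to 1824 for WT CCR2hi. These 4 ranges do not overlap. Per 100 macrophage identity counts the 10 ligands had 11.3 to 12.5 counts in Bhlhe41Cre CCR2low, 18.6 to 22.8 in Bhlhe41Cre CCR2hi, 6.97 to 8.41 in WT CCR2low, and 10.6 to 23.3 for WT CCR2hi. On that scale the gates changed places in Bhlhe41Cre and in WT, while Bhlhe41Cre CCR2low stayed above WT CCR2low.

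The mix of ligands also differed. Among the summed TPM of the 10, the monocyte attractant Ccl2 made up 10.4% ± 1.84 in Bhlhe41Cre CCR2low, 25.2% ± 7.06 in Bhlhe41Cre CCR2hi, 9.92% ± 1.26 in WT CCR2low, and 29.0% ± 13.6 for WT CCR2hi (SD, n = 3 each). It was the leading ligand in all 3 WT CCR2hi libraries and in 2 of 3 Bhlhe41Cre CCR2hi libraries, the other being led by Ccl4. Ccl4 led 2 of 3 Bhlhe41Cre CCR2low libraries, with Ccl6 leading the other, and Ccl6 led all 3 WT CCR2low libraries at 20.3% to 31.8%. Ccl8 held 9.13% ± 1.70 in Bhlhe41Cre CCR2low and 3.11% ± 0.68 in Bhlhe41Cre CCR2hi, 12.1% ± 1.76 in WT CCR2low, and 3.32% ± 1.74 for WT CCR2hi. The least abundant ligand was Ccl24, except in WT CCR2low, where Ccl5 was lower still at 0.557% ± 0.067.

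**Figure D1:**
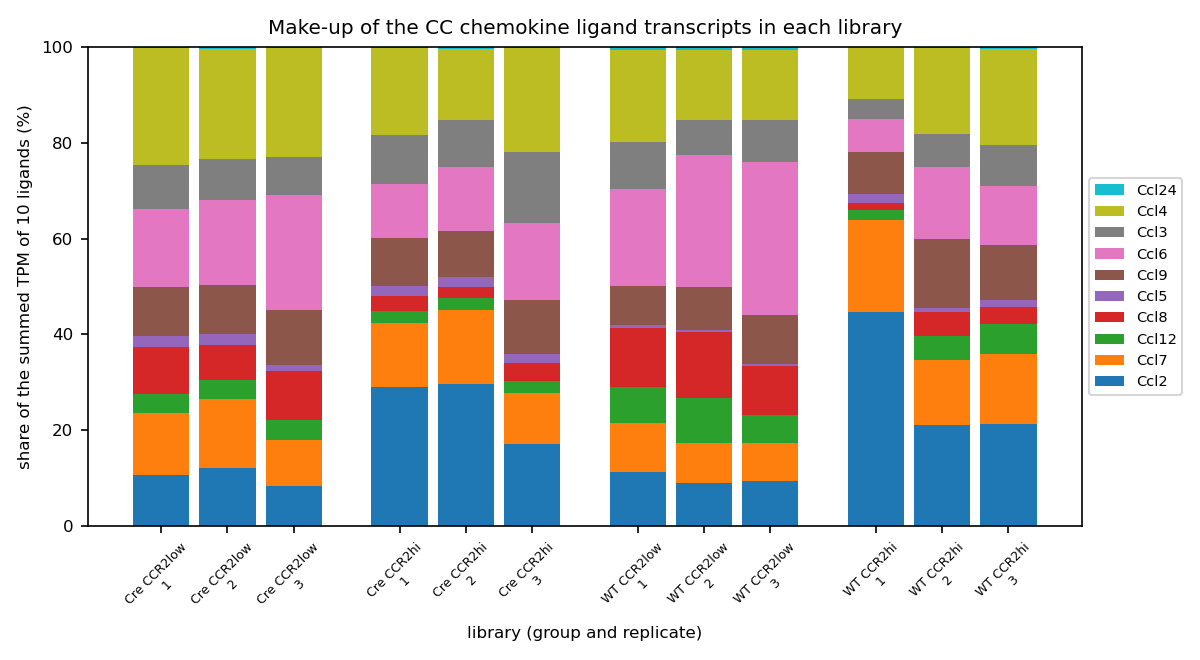
Share (%, y axis) of each of the 10 ligands in their summed TPM, 1 bar per library, grouped by genotype (Cre is Bhlhe41Cre) and CCR2 gate with the replicate number under each bar. The bottom segment, Ccl2, takes 8.43% to 12.1% in Bhlhe41Cre CCR2low, against 17.1% to 29.6% in Bhlhe41Cre CCR2hi, and 9.04% to 11.4% in WT CCR2low, against 21.1% to 44.7% in WT CCR2hi.

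Between the gates, 9 of 10 ligands were higher in CCR2low than in CCR2hi in Bhlhe41Cre and 10 of 10 in WT on the CPM scale (edgeR quasi-likelihood test, Benjamini-Hochberg adjusted p under 0.05). Of all genes tested, 24.9% were called higher and 29.1% lower in Bhlhe41Cre, and 29.8% higher and 30% lower in WT, with 0 ligands lower in either. The median log2 fold change over the 10 ligands was 1.35 in Bhlhe41Cre and 2.39 in WT, beside -0.006 and 0.011 over all genes. On this scale the identity genes moved the same way, with 17 of 17 called higher in CCR2low in both genotypes. Per macrophage identity counts the median over all genes moved by -1.97 in Bhlhe41Cre and by -3.31 in WT, and there only Ccl8 was called higher in CCR2low, in both genotypes (background 0.461% and 0.715%). On that scale Ccl2, Ccl3, Ccl7 and Ccl9 were called lower in CCR2low in Bhlhe41Cre and Ccl2, Ccl4, Ccl5, Ccl7 and Ccl9 in WT, where 90% and 95.2% of all genes were called lower. WT CCR2hi replicate 1 has the lowest identity share, and without it 1 ligand was called higher and 6 lower on that scale in Bhlhe41Cre (background 0.697% and 91.5%), and 1 higher and 6 lower in WT (background 0.886% and 93.4%).

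**Figure D2:**
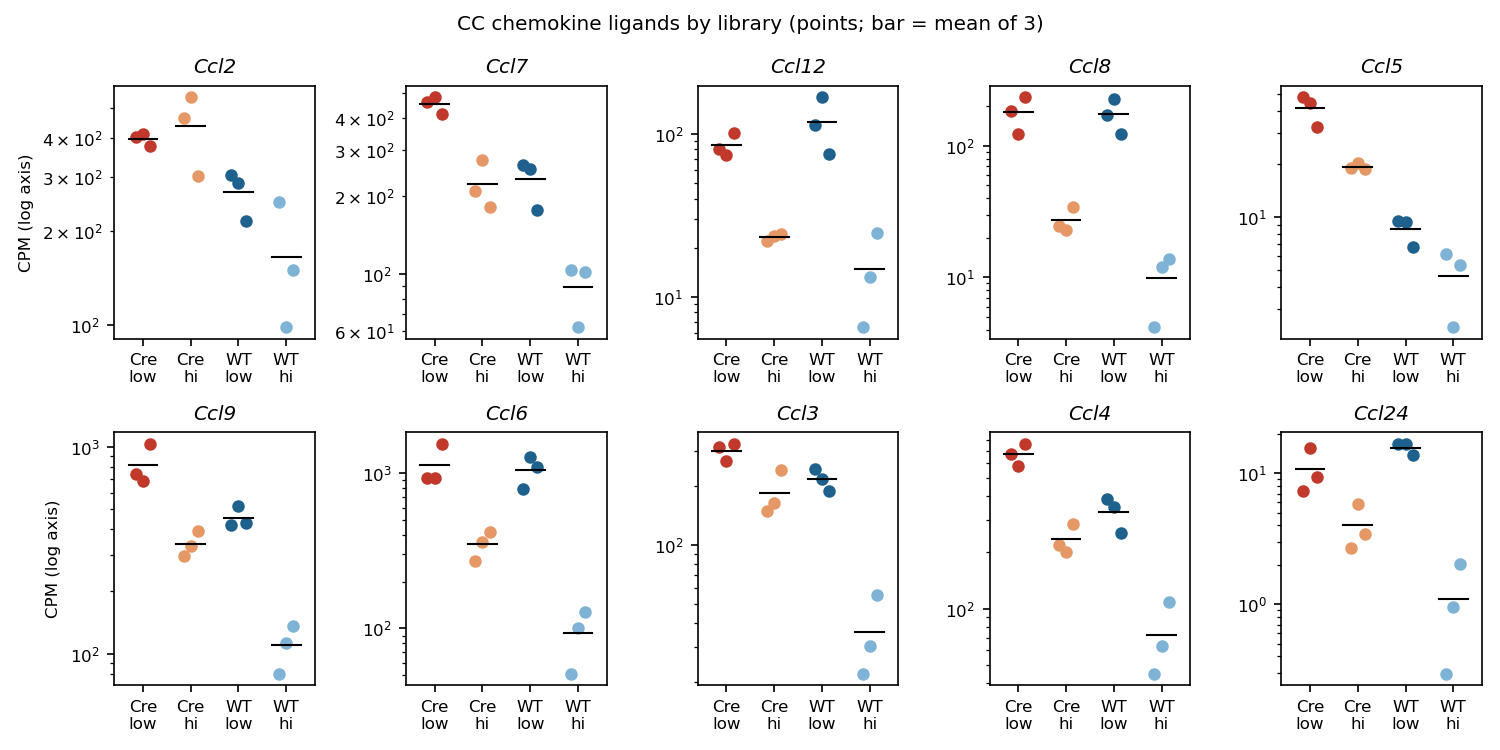
CPM of each ligand (log axis) in the 3 libraries of each group (points; bar, mean of 3), with Cre for Bhlhe41Cre and low and hi for the CCR2 gates. Ccl5 falls into 4 separate levels, and Ccl8, Ccl6 and Ccl12 show CCR2low libraries of both genotypes at overlapping levels above the CCR2hi libraries; these gate differences are on the CPM scale, and of the ligands named here Ccl8 was also called higher in CCR2low per macrophage identity counts.

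Ccl8 had the highest CCR2low over CCR2hi value of the 10 in each genotype, on both scales. It had 185, 123 and 234 CPM in Bhlhe41Cre CCR2low, 24.6, 22.8 and 34.0 in Bhlhe41Cre CCR2hi, 173, 229 and 124 in WT CCR2low, and 4.19, 11.9 and 13.8 for WT CCR2hi. Every CCR2low library was above every CCR2hi library, and the CCR2low libraries of the 2 genotypes overlapped. The log2 fold change of CCR2low over CCR2hi was 2.73 ± 0.37 in Bhlhe41Cre (SE, adjusted p = 3.45e-05) and 4.14 ± 0.40 in WT (adjusted p = 1.36e-06). Per 1000 macrophage identity counts Ccl8 had 5.13 ± 1.09 counts in Bhlhe41Cre CCR2low and 3.05 ± 0.34 in Bhlhe41Cre CCR2hi, 4.604 ± 1.14 in WT CCR2low, and 2.23 ± 0.45 for WT CCR2hi (SD, n = 3 each), with log2 fold changes of 0.75 ± 0.30 (adjusted p = 0.0236) and 1.04 ± 0.30 (adjusted p = 0.00295). Resident cardiac macrophage genes, a list of 9 such as Lyve1, Timd4 and Folr2, were called higher in CCR2low in 9 of 9 in both genotypes, and made up 0.135% to 0.209% of counts in Bhlhe41Cre CCR2low, 0.0311% to 0.0318% in Bhlhe41Cre CCR2hi, 0.139% to 0.233% in WT CCR2low, and 0.00924% to 0.0175% for WT CCR2hi. Between the genotypes in CCR2low the 9 resident genes went different ways on the CPM scale, with 4 called lower in Bhlhe41Cre and 1 higher (26.7% and 16.4% of all genes). Lyve1 had 21.5 ± 6.28 CPM in Bhlhe41Cre CCR2low and 166 ± 45.3 in WT CCR2low. Mrc1, the higher one, had 728 ± 178 and 419 ± 89.4. The part of the resident genes in the Ccl8 difference was not tested.

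Ccl2, which draws CCR2-bearing monocytes out of the bone marrow and into tissue, was the ligand least tied to the CCR2low gate. It had 402, 412 and 376 CPM in Bhlhe41Cre CCR2low, 464, 539 and 301 in Bhlhe41Cre CCR2hi, 303, 286 and 216 in WT CCR2low, and 248, 98.6 and 150.1 for WT CCR2hi. The gates overlapped in both genotypes. In Bhlhe41Cre the log2 fold change was -0.13 ± 0.28 (adjusted p = 0.715), and in WT it was 0.70 ± 0.28 (adjusted p = 0.0476), a call kept in 5 of 19 alternative fits (macrophage identity scaling aside), over which the adjusted p ran from 0.00678 to 0.239. Single libraries left out ended the call in 10 of 12 cases, the exceptions being WT CCR2low replicate 3 and WT CCR2hi replicate 1. Per 1000 macrophage identity counts Ccl2 was lower in CCR2low, at 11.8, 13.2 and 9.72 in Bhlhe41Cre CCR2low and 59.2, 63.3 and 29.6 in Bhlhe41Cre CCR2hi, 7.78, 7.26 and 6.19 in WT CCR2low, and 102, 21.03 and 26.4 for WT CCR2hi. On this scale the log2 fold change was -2.13 ± 0.48 in Bhlhe41Cre (adjusted p = 0.000431) and -2.82 ± 0.49 in WT (adjusted p = 2.10e-05), the WT value resting partly on WT CCR2hi replicate 1, the library with the lowest macrophage identity share (-1.75 without it). The fibroblast share of counts given above was also higher in CCR2hi, and its part in the Ccl2 level was not tested.

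Ccl7, which shares CCR2 and other receptors with Ccl2, ranged over 413 to 480 CPM in Bhlhe41Cre CCR2low, 182 to 275 in Bhlhe41Cre CCR2hi, 177 to 264 in WT CCR2low, and 62.3 to 104 for WT CCR2hi. Unlike Ccl2, its gates did not overlap in either genotype, with log2 fold changes of 1.03 ± 0.22 in Bhlhe41Cre (adjusted p = 0.00120) and 1.37 ± 0.22 in WT (adjusted p = 0.000110). It was lower in CCR2low per macrophage identity counts, at -0.96 ± 0.38 in Bhlhe41Cre (adjusted p = 0.0250) and -2.01 ± 0.40 in WT (adjusted p = 7.76e-05, and -1.36 without WT CCR2hi replicate 1).

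Ccl12, the remaining CCR2 ligand, was higher in CCR2low on the CPM scale and not called per macrophage identity counts, with 73.8 to 101 CPM in Bhlhe41Cre CCR2low, 22.1 to 24.2 in Bhlhe41Cre CCR2hi, 75.1 to 167 in WT CCR2low, and 6.51 to 24.7 for WT CCR2hi. Its gate differences were 1.87 ± 0.37 in Bhlhe41Cre (adjusted p = 0.000766) and 3.00 ± 0.39 in WT (adjusted p = 1.85e-05). Relative to macrophage identity counts it was almost level between the gates, with -0.12 ± 0.30 in Bhlhe41Cre (adjusted p = 0.718) and -0.09 ± 0.30 in WT (adjusted p = 0.774), and its gates overlapped in both genotypes on that scale.

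Ccl3 and Ccl4, neighbouring genes whose products attract monocytes, T cells and NK cells, were high in CCR2low on the CPM scale. Ccl3 had 314, 266 and 326 CPM in Bhlhe41Cre CCR2low, 149, 164 and 239.8 in Bhlhe41Cre CCR2hi, 242, 215 and 188 in WT CCR2low, and 22.0, 30.5 and 55.3 for WT CCR2hi. Bhlhe41Cre CCR2hi reached into the range of WT CCR2low, whereas WT CCR2hi lay below every other library. The log2 fold change of CCR2low over CCR2hi was 0.71 ± 0.27 in Bhlhe41Cre (adjusted p = 0.03997, called in 11 of 19 alternative fits and lost without replicate 1 or 3 of Bhlhe41Cre CCR2low, 1 or 2 of Bhlhe41Cre CCR2hi or 2 of WT CCR2low, with adjusted p = 0.052 to 0.129) and 2.58 ± 0.29 in WT (adjusted p = 4.71e-06). Ccl4 had 676, 581 and 761 CPM in Bhlhe41Cre CCR2low, 218, 202 and 285 in Bhlhe41Cre CCR2hi, 385, 351 and 254 in WT CCR2low, and 45.01, 63.2 and 109 for WT CCR2hi. Its gate differences were 1.52 ± 0.27 in Bhlhe41Cre (adjusted p = 0.000340) and 2.19 ± 0.28 in WT (adjusted p = 1.53e-05). Both genes had negative values per macrophage identity counts, -1.24 ± 0.28 in Bhlhe41Cre (adjusted p = 0.000424) and -0.57 ± 0.28 in WT (adjusted p = 0.0563) for Ccl3, and -0.45 ± 0.28 (adjusted p = 0.127) and -0.97 ± 0.28 (adjusted p = 0.00280) for Ccl4.

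Ccl6 and Ccl9, ligands of CCR1 known from rodents and made by myeloid cells, were both higher in CCR2low on the CPM scale in each genotype, but neither was called higher per macrophage identity counts. Ccl6 had 929.6, 931 and 1541 CPM in Bhlhe41Cre CCR2low, 271, 359 and 416 in Bhlhe41Cre CCR2hi, 789, 1266 and 1095 in WT CCR2low, and 51.2, 100.6 and 128 for WT CCR2hi. The CCR2low libraries of the 2 genotypes overlapped, and the CCR2hi libraries did not. Its gate differences were 1.70 ± 0.31 in Bhlhe41Cre (adjusted p = 0.000432) and 3.49 ± 0.34 in WT (adjusted p = 1.28e-06). Ccl9 ranged over 680.2 to 1032 CPM in Bhlhe41Cre CCR2low, 295 to 391 in Bhlhe41Cre CCR2hi, 417 to 518 in WT CCR2low, and 80.2 to 137 for WT CCR2hi, 4 ranges that did not overlap, with gate differences of 1.27 ± 0.21 in Bhlhe41Cre (adjusted p = 0.000167) and 2.05 ± 0.21 in WT (adjusted p = 2.44e-06). Per macrophage identity counts Ccl6 was not called in either genotype (-0.28 ± 0.29 and 0.36 ± 0.29, adjusted p = 0.359 and 0.231), while Ccl9 was lower in CCR2low in both (-0.71 ± 0.28 and -1.17 ± 0.28, adjusted p = 0.0204 and 0.000565).

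Ccl24, an attractant of eosinophils through CCR3 that alternatively activated macrophages make, was scarce. It had 7.34, 15.8 and 9.47 CPM in Bhlhe41Cre CCR2low, 2.69, 5.87 and 3.45 in Bhlhe41Cre CCR2hi, 16.8, 16.7 and 13.8 in WT CCR2low, and 0.296, 0.945 and 2.04 for WT CCR2hi, where it rested on 6, 18 and 40 counts. The gates did not overlap in either genotype, and the gate differences were 1.44 ± 0.42 in Bhlhe41Cre (adjusted p = 0.0109, but 0.0582 without Bhlhe41Cre CCR2low replicate 2 and 0.0502 without Bhlhe41Cre CCR2hi replicate 1) and 3.85 ± 0.48 in WT (adjusted p = 1.41e-05). It was not called per macrophage identity counts (-0.51 ± 0.41 in Bhlhe41Cre and 0.81 ± 0.44 in WT, adjusted p = 0.240 and 0.0827).

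**Figure D3:**
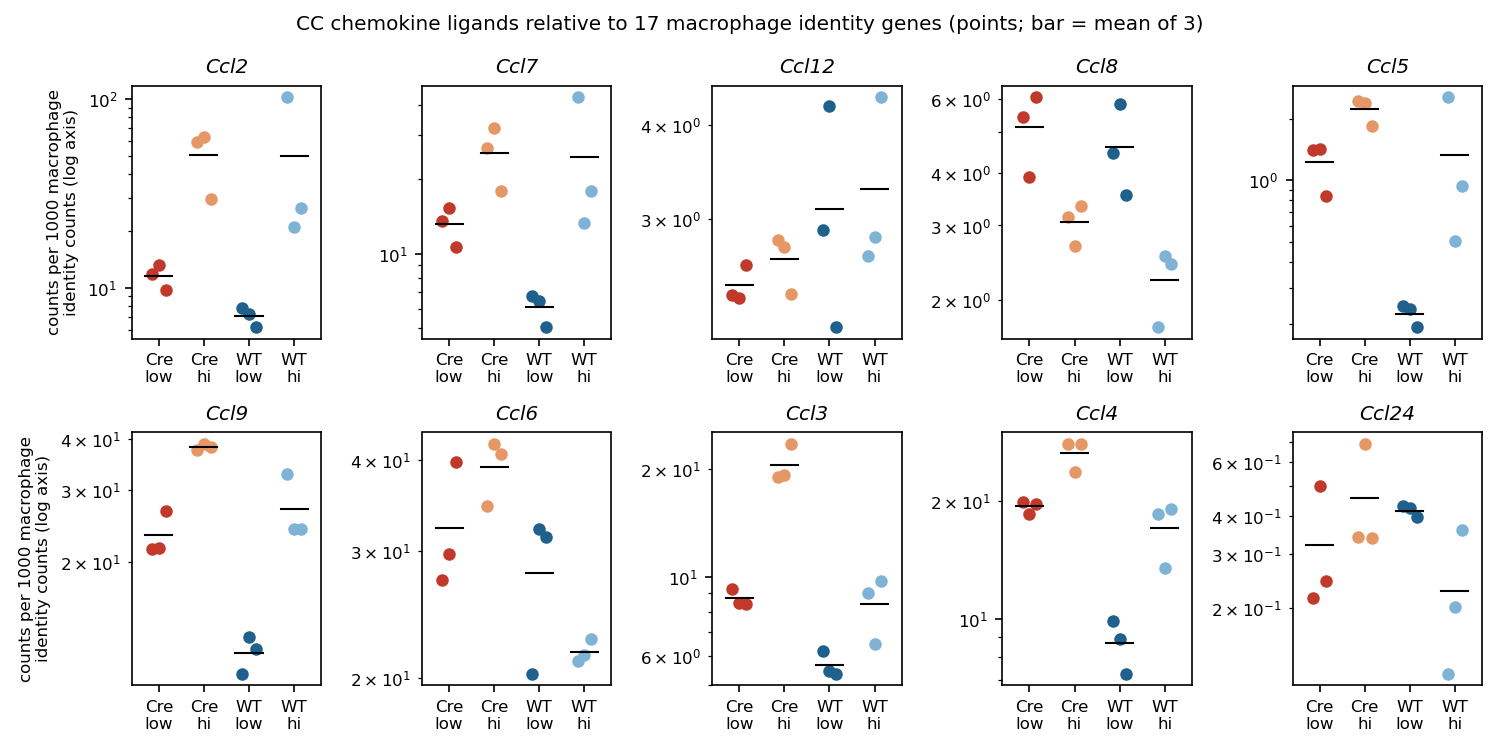
Counts of each ligand per 1000 counts of 17 macrophage identity genes (log axis) in the 3 libraries of each group (points; bar, mean of 3), with Cre for Bhlhe41Cre and low and hi for the CCR2 gates. On this scale Ccl8 stays higher in CCR2low, Ccl2 is higher in CCR2hi, and 1 WT CCR2hi library, replicate 1, lies apart at 102 for Ccl2 and 42.7 for Ccl7.

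Between the genotypes, Ccl5 had the largest difference of the 10 in CCR2low and the next largest, after Ccl3, in CCR2hi. Its product draws T cells, monocytes and eosinophils through CCR1 and CCR3, among others. It had 47.9, 44.4 and 32.6 CPM in Bhlhe41Cre CCR2low, 19.1, 20.2 and 18.8 in Bhlhe41Cre CCR2hi, 9.48, 9.30 and 6.73 in WT CCR2low, and 6.16, 2.36 and 5.35 for WT CCR2hi. The 4 groups did not overlap, and all 6 Bhlhe41Cre libraries were above all 6 WT libraries. Bhlhe41Cre over WT was 2.29 ± 0.27 on the log2 scale in CCR2low (adjusted p = 7.02e-05) and 2.06 ± 0.28 in CCR2hi (adjusted p = 0.000141), and both calls were kept in 19 of 19 alternative fits, macrophage identity scaling aside. Per macrophage identity counts the CCR2low difference was 2.44 ± 0.43 (adjusted p = 0.00199). The CCR2hi difference on that scale was 0.77 ± 0.42 (adjusted p = 0.104), and 1.60 (adjusted p = 0.000983) without WT CCR2hi replicate 1. The gate difference of Ccl5 was 1.11 ± 0.26 in Bhlhe41Cre (adjusted p = 0.00237) and 0.87 ± 0.28 in WT (adjusted p = 0.0149), with negative values per macrophage identity counts (-0.86 ± 0.41 and -2.53 ± 0.45, adjusted p = 0.0569 and 2.24e-05, the WT value being -1.70 without WT CCR2hi replicate 1). The WT call was lost without any 1 of the Bhlhe41Cre CCR2hi libraries (0.67 each time, adjusted p = 0.0606 to 0.0648), and the cause was not tested.

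T and NK cells are another source of Ccl5. Their 16 marker genes summed to 0.00136% to 0.00193% of counts in Bhlhe41Cre CCR2low, 0.00135% to 0.00263% in Bhlhe41Cre CCR2hi, 0.00223% to 0.00264% in WT CCR2low, and 0.000652% to 0.00143% for WT CCR2hi. Between Bhlhe41Cre and WT, 0 of 15 tested markers were called higher and 5 lower in CCR2low, where 16.4% and 26.7% of all genes were. In CCR2hi 2 were called higher and 0 lower, where 16.2% and 15.9% of all genes were. Apart from Cd4 these markers had few counts, such as Cd3e at 0.0738 CPM in Bhlhe41Cre CCR2low and 0.652 in WT CCR2low. Cd4, the most abundant of them in CCR2low at 10.5 ± 1.54 CPM in Bhlhe41Cre and 11.4 ± 3.49 CPM in WT, was not called between the genotypes but was called higher in CCR2low than in CCR2hi in both. The part of these cells in the Ccl5 differences was not tested.

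In CCR2low, 4 of 10 ligands were higher in Bhlhe41Cre than in WT and 0 lower, where 16.4% of all genes were called higher and 26.7% lower. The median log2 fold change was 0.53 over the ligands and -0.18 over all genes. Besides Ccl5 they were Ccl4 (1.03 ± 0.27, adjusted p = 0.00787), Ccl7 (0.96 ± 0.22, adjusted p = 0.00319) and Ccl9 (0.84 ± 0.21, adjusted p = 0.00549). These 4 calls were kept in 19 of 19 alternative fits, and per macrophage identity counts Ccl4, Ccl5 and Ccl9 were called higher and 0 ligands lower (background 6.61% and 7.56%), while Ccl7 had 1.11 ± 0.39 (adjusted p = 0.0593). Without WT CCR2hi replicate 1, 6 ligands were called higher and 0 lower on that scale (background 16.8% and 17.7%). The identity genes themselves showed 0 of 17 called in either direction in this comparison. Ccl2 and Ccl3 did not overlap between the genotypes but were not called (0.56 ± 0.28 and 0.49 ± 0.27, adjusted p = 0.123 and 0.160). For Ccl6 (0.11 ± 0.31), Ccl8 (0.04 ± 0.35), Ccl12 (-0.47 ± 0.36) and Ccl24 (-0.54 ± 0.40) the genotypes overlapped, with adjusted p of 0.790, 0.933, 0.301 and 0.296.

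In CCR2hi, 9 of 10 ligands were higher in Bhlhe41Cre than in WT and 0 lower, where 16.2% of all genes were called higher and 15.9% lower. The median log2 fold change was 1.66 over the ligands and -0.03 over all genes. Ccl3 had the largest value (2.36 ± 0.29, adjusted p = 7.20e-05), then Ccl5, Ccl6 (1.90 ± 0.32, adjusted p = 0.000665), Ccl24 (1.87 ± 0.49, adjusted p = 0.0111, but 0.0614 without Bhlhe41Cre CCR2hi replicate 2) and Ccl4 (1.70 ± 0.27, adjusted p = 0.000540). Ccl9 followed at 1.62 ± 0.21, Ccl8 at 1.45 ± 0.37, Ccl2 at 1.39 ± 0.29 and Ccl7 at 1.31 ± 0.22, with adjusted p of 0.000114, 0.0101, 0.00270 and 0.000639. Ccl12 was not called (0.65 ± 0.37, adjusted p = 0.199). The summed share of the identity list was itself higher in Bhlhe41Cre CCR2hi, with 10 of 17 identity genes called higher. The list moved unevenly. Adgre1, Csf1r, Mertk, Laptm5, C1qa, C1qb and C1qc were not called, with values from 0.13 for Mertk to 0.67 for C1qb. Among those called, Cd68 had 1.98, Cd14 1.85 and Tyrobp 1.79. Per macrophage identity counts, where the median of all genes moved by -1.21, Ccl3 (1.29 ± 0.28), Ccl4 (0.64 ± 0.28) and Ccl6 (0.85 ± 0.29) were called higher (adjusted p = 0.000916, 0.0458 and 0.0147) and 0 ligands lower (background 1.5% and 72.9%). That count rested on WT CCR2hi replicate 1: without it 7 ligands were called higher and 0 lower on this scale (background 3.69% and 56.8%), Ccl2, Ccl5, Ccl7 and Ccl9 in addition, and Ccl2 was 1.09 in place of 0.02. Neutrophil genes (13, such as S100a8), whose cells also make Ccl3, Ccl4 and Ccl6, made up 0.101% to 0.152% of counts in Bhlhe41Cre CCR2hi and 0.00627% to 0.0165% in WT CCR2hi, with 9 of 12 tested called higher, and their part in these differences was not tested.

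**Figure D4:**
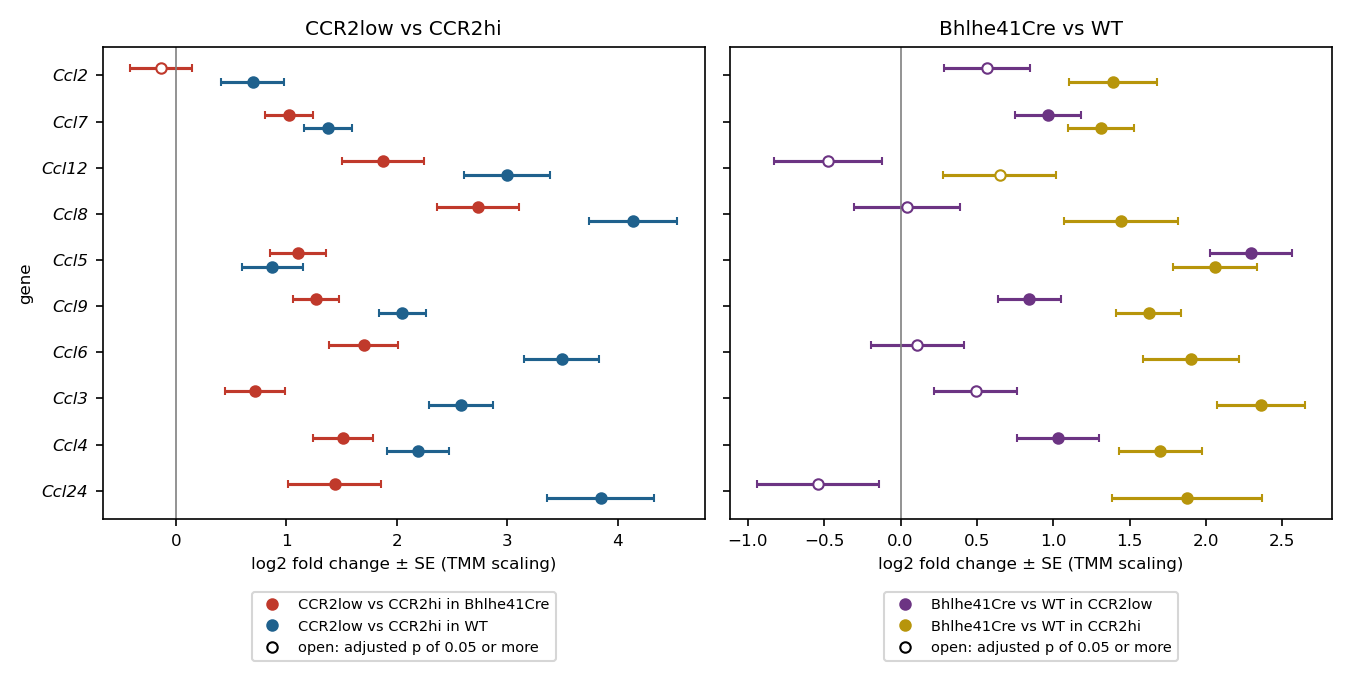
Log2 fold change ± SE (x axis, TMM scaling of all counts) of each ligand for CCR2low over CCR2hi in each genotype (left) and for Bhlhe41Cre over WT in each gate (right); filled points have an adjusted p under 0.05 and open points do not. Gate differences of Ccl3, Ccl6 and Ccl24 are smaller in Bhlhe41Cre than in WT, and per macrophage identity counts the gate values of most ligands were negative, Ccl8 in both genotypes and Ccl6 and Ccl24 in WT being above 0.

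The gate difference itself differed between genotypes for 3 of 10 ligands. The interaction test takes the log2 gate difference of WT from that of Bhlhe41Cre. In it Ccl3 (-1.87 ± 0.39, adjusted p = 0.00961), Ccl6 (-1.79 ± 0.44, adjusted p = 0.0199) and Ccl24 (-2.41 ± 0.63, adjusted p = 0.0270) were called lower and 0 higher, where 7.85% of all genes were called lower and 4.74% higher. The median over the ligands was -0.98 and over all genes -0.18. These calls were kept in 17, 13 and 7 of 18 alternative fits. Without replicate 1 of Bhlhe41Cre CCR2low, 2 or 3 of Bhlhe41Cre CCR2hi or 2 of WT CCR2low, Ccl6 and Ccl24 were both lost (adjusted p = 0.0552 to 0.0835 for Ccl6 and 0.0606 to 0.102 for Ccl24), and Ccl24 was also lost without replicate 3 of Bhlhe41Cre CCR2low, 1 of WT CCR2low or 1 or 2 of WT CCR2hi (0.0501 to 0.0587). The remaining 7 were not called, with values from -1.40 ± 0.51 for Ccl8 (adjusted p = 0.0862) to 0.23 ± 0.38 for Ccl5 (adjusted p = 0.714). The identity genes moved the same way, with 7 of 17 called lower (median -1.01). So did the neutrophil genes, with 7 of 12 tested called lower (median -3.40). Resident cardiac macrophage genes had 4 of 9 called lower, and T and NK cell genes 4 of 15 tested. The part of these cells in the ligand values was not tested. With the replicate number as a block, 5 ligands were called lower, Ccl8 and Ccl9 in addition (background 8.59%). Per macrophage identity counts Ccl3, Ccl6 and Ccl24 had -0.67 ± 0.39, -0.64 ± 0.41 and -1.32 ± 0.60 (adjusted p = 0.144, 0.181 and 0.0741), and Ccl5 was called higher (1.67 ± 0.59, adjusted p = 0.0348) with 0 ligands lower (background 42.5% and 0.735%). Without WT CCR2hi replicate 1 on that scale, Ccl5 was 0.84 (adjusted p = 0.0972) and Ccl3 was called lower (-0.73, adjusted p = 0.0349) with 0 higher (background 1.79% and 39.1%).

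Ratios between neighbouring ligands need no scaling to all counts or to macrophage counts, and were chosen after the levels had been seen, so they are described with no test. The TPM ratio of Ccl12 to Ccl8, the pair whose promoters are printed above, was 0.405, 0.557 and 0.401 in Bhlhe41Cre CCR2low, 0.831, 0.956 and 0.663 in Bhlhe41Cre CCR2hi, 0.607, 0.683 and 0.566 in WT CCR2low, and 1.45, 1.04 and 1.67 for WT CCR2hi. It was lower in CCR2low than in CCR2hi in both genotypes and lower in Bhlhe41Cre than in WT in both gates, with no overlap in these 4 pairs. The ratio of Ccl3 to Ccl4 was 0.377, 0.371 and 0.349 in Bhlhe41Cre CCR2low and 0.556, 0.660 and 0.686 in Bhlhe41Cre CCR2hi, but 0.517, 0.503 and 0.607 in WT CCR2low, and 0.402, 0.396 and 0.419 for WT CCR2hi. The gates were thus ordered in opposite ways in the 2 genotypes, without overlap. The ratio of Ccl2 to Ccl7 was 0.834 to 0.887 in Bhlhe41Cre CCR2low, 1.61 to 2.15 in Bhlhe41Cre CCR2hi, 1.10 to 1.19 in WT CCR2low, and 1.44 to 2.33 for WT CCR2hi. That of Ccl9 to Ccl6 was 0.477 to 0.615 in Bhlhe41Cre CCR2low, 0.687 to 0.895 in Bhlhe41Cre CCR2hi, 0.321 to 0.398 in WT CCR2low, and 0.919 to 1.28 for WT CCR2hi. Both were lower in CCR2low than in CCR2hi in each genotype with no overlap.

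Receptor genes of these ligands differed too. Ccr1, the receptor of Ccl3, Ccl5, Ccl6 and Ccl9, averaged 232 ± 41.2 CPM in Bhlhe41Cre CCR2low, 208 ± 11.4 in Bhlhe41Cre CCR2hi, 99.8 ± 21.5 in WT CCR2low, and 22.8 ± 7.42 for WT CCR2hi (SD, n = 3 each), and was called higher in Bhlhe41Cre in CCR2low (1.22 ± 0.22, adjusted p = 0.000921) and in CCR2hi (3.19 ± 0.24, adjusted p = 2.06e-06). Per 1000 macrophage identity counts, a scale on which it was not tested, Ccr1 averaged 6.80 ± 1.65 in Bhlhe41Cre CCR2low, 23.7 ± 2.60 in Bhlhe41Cre CCR2hi, 2.65 ± 0.58 in WT CCR2low and 6.57 ± 5.08 in WT CCR2hi. Ccr3, the receptor of Ccl24, had 4.76 ± 1.18 CPM in Bhlhe41Cre CCR2low, 1.33 ± 0.324 in Bhlhe41Cre CCR2hi, 0.833 ± 0.478 in WT CCR2low, and 0.0175 ± 0.0303 for WT CCR2hi. It was called higher in Bhlhe41Cre in CCR2low (2.51 ± 0.40, adjusted p = 0.000393) and in CCR2hi (adjusted p = 0.000115), where no fold is given because the WT libraries held 0, 1 and 0 counts.

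The other CC chemokine ligands, which include attractants of lymphocytes and dendritic cells, were mostly below the low-count filter. Of 14 listed, 6 passed the filter, and 0 were called higher in CCR2low in either genotype, with 5 called lower in Bhlhe41Cre, where 29.1% of all genes were, and 2 in WT, where 30% were. Those lower in both were Ccl17, a ligand of CCR4 made by dendritic cells, and Ccl11, a ligand of CCR3 made by fibroblasts (-2.18 ± 0.51 in Bhlhe41Cre and -2.94 ± 0.53 in WT, adjusted p = 0.00263 and 0.000342). The Ccl11 values rested on few counts, with 0.57 CPM in Bhlhe41Cre CCR2low and 0.38 in WT CCR2low. Ccl17 had 0, 2 and 0 counts in Bhlhe41Cre CCR2low, 17, 25 and 19 in Bhlhe41Cre CCR2hi, 2, 11 and 1 in WT CCR2low, and 79, 68 and 22 for WT CCR2hi, too few for a fold. Ccl19, Ccl22 and Ccl27a were called in Bhlhe41Cre. Between the genotypes Ccl22, which shares CCR4 with Ccl17, was called higher in Bhlhe41Cre in CCR2low (1.20 ± 0.37, adjusted p = 0.0187) and in CCR2hi (1.85 ± 0.36, adjusted p = 0.00174), and Ccl27a lower in CCR2low (-1.77 ± 0.34, adjusted p = 0.00116). Ccl27a too had few counts, with 0.41 CPM in Bhlhe41Cre CCR2low and 1.41 in WT CCR2low. Of 6 atypical and accessory receptor genes, which take up, present or cut chemokines, 1 was called higher and 5 lower in CCR2low in Bhlhe41Cre, and 1 higher and 4 lower in WT (24.9% and 29.1% of all genes in Bhlhe41Cre, 29.8% and 30% in WT). The higher one on the CPM scale was Ccrl2, lower in CCR2low per 1000 macrophage identity counts (19.9 ± 0.54 in Bhlhe41Cre CCR2low and 34.5 ± 8.24 in Bhlhe41Cre CCR2hi, 26.7 ± 0.87 in WT CCR2low, and 41.3 ± 11.6 for WT CCR2hi), with log2 fold changes on the CPM scale of 1.15 ± 0.23 and 2.62 ± 0.24 (adjusted p = 0.000694 and 7.37e-07), and Ackr2, a scavenger of inflammatory CC chemokines, was among the lower (-1.51 ± 0.28 and -1.89 ± 0.28, adjusted p = 0.000447 and 6.05e-05). Bhlhe41Cre over WT gave 0 higher and 1 lower of the 6 in CCR2low (16.4% and 26.7% of all genes) and 2 higher and 1 lower in CCR2hi (16.2% and 15.9%), and the interaction 0 higher and 3 lower (4.74% and 7.85%).

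To see which genes each ligand tracked, profiles of log2(CPM + 1) over the 12 libraries, each centred on its own mean, were compared with 10534 genes of at least 5 CPM by their root mean square difference in log2 units. These 12 points share their 4 group means and the macrophage shares given above. The differences are not scaled to a ligand's own spread over the libraries, which ran from 0.67 log2 units for Ccl2 to 1.82 for Ccl8. They therefore do not rank how closely different ligands were matched. Ccl4 and Ccl9 were the closest pair of ligands (0.246), and the nearest other gene to Ccl4, Aif1 (0.214), a macrophage calcium-binding protein gene, was also among the 2 nearest to Ccl9 (0.227, after Rilpl2 at 0.225). Ccl6 was nearest to Cfp (0.224), the properdin gene of the complement system, and to Tyrobp (0.241), a myeloid signalling adaptor gene. Aif1 and Tyrobp are in the identity list. Ccl8 was nearest to Nxpe5 (0.201) and Trem2 (0.322), a lipid-sensing receptor gene. Ccl7 was nearest to Plau (0.192), the urokinase gene, and Esd (0.195), and Ccl5 to Rab11fip1 (0.219) and Mefv (0.235), the pyrin gene. Ccl3 was nearest to Sirpb1c (0.248) and Gm6377 (0.298), Ccl12 to Ptpn7 (0.263) and Nrros (0.298), and Ccl24 to Cd300ld (0.358) and Alox5ap (0.362). Ccl2 was nearest to Sde2 (0.245) and Pvr (0.255), and its nearest fellow ligand, Ccl7, was at 0.492.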

How the data were processed

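Gene counts and TPM were used as deposited by the authors. Per the submitters' processing notes, CASAVA 1.8, STAR 2.4.0j and RSEM were used with mm10. The deposited counts are whole numbers per Ensembl gene. The gene annotation is not given in the sources used here. Columns named KD were matched to the Bhlhe41Cre samples by gate and number, since the tables name no other genotype besides WT. The other label fields of those samples are shifted.

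Counts were tested in R 4.3.3 with edgeR 4.0.16 (TMM, filterByExpr, robust glmQLFit, 4 group means, 8 residual degrees of freedom, two-sided tests, Benjamini-Hochberg adjustment over 14964 genes, adjusted p under 0.05). The SE is the log2 fold change over the square root of F. All 10 ligands are named, with listed genes that passed the filter and, for likeness, the 2 nearest genes to each ligand. Alternatives were DESeq2 1.42.0, library size scaling, scaling to macrophage identity counts, no low-count filter, limma 3.58.1 on log2(TPM + 1), the compared groups alone, a replicate block and each library left out. Added after seeing the data were both Bhlhe41Cre replicate 3 libraries left out (their Y-linked counts are low) and macrophage identity scaling without WT CCR2hi replicate 1. Residuals of same-numbered libraries correlated between the gates at 0.333, 0.155 and 0.549 in Bhlhe41Cre, above the limit of 0.1 for pairing, and at -0.0859, 0.0637 and -0.0391 in WT, which does not pair them. In Bhlhe41Cre, CCR2low replicate 2 and CCR2hi replicate 1 were also at 0.352, so pairing by number is not settled for replicates 1 and 2 there. Both replicate 3 libraries were set apart by low Y-linked counts (105 and 182) and had the highest value, 0.549. The main tests used no pairing, so their p-values for the gate and the interaction take no account of it. The other differently numbered pairs of Bhlhe41Cre ran from -0.494 to -0.00513. The tests were checked on simulated data, with a pass mark set on 4-fold changes after 2-fold changes had been recovered less often, so a small difference that was not called is not shown to be absent. The members and gene lists were chosen with earlier results of these data known. Counts over the receptor gene list are not reported here.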

Additional observations from a re-analysis of the deposited data

Results flagged for a closer look

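The gate difference of Ccl3, Ccl6 and Ccl24 differed between the genotypes in the interaction test itself, at -1.87, -1.79 and -2.41 on the log2 scale. All 3 were higher in CCR2low in both genotypes on the CPM scale, by less in Bhlhe41Cre than in WT. The calls were kept in 17, 13 and 7 of 18 alternative fits, and per macrophage identity counts none of the 3 was called (adjusted p = 0.144, 0.181 and 0.0741). Without WT CCR2hi replicate 1 on that scale, Ccl3 was called lower (-0.73, adjusted p = 0.0349), and Ccl6 and Ccl24 were not (adjusted p = 0.102 and 0.147).

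The TPM ratio of Ccl3 to Ccl4 moved in opposite directions between the gates. The mean ratio in CCR2low minus that in CCR2hi was -0.268 in Bhlhe41Cre and 0.137 in WT, and no library of one gate overlapped the other within a genotype. This difference between the genotypes was not tested.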

How the results depend on the processing

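Calls and directions in this section are those at an adjusted p under 0.05. Of the values of single ligands under the 21 alternatives, 905 kept their direction and their side of the threshold, 68 lost the call, 18 gained one and 49 changed sign. Macrophage identity scaling changed most. Under it the ligands called higher and lower in CCR2low were 1 and 4 in Bhlhe41Cre and 1 and 5 in WT, 3 were higher in Bhlhe41Cre in CCR2hi, and the interaction had 1 higher and 0 lower. All genes called were 13540, 14356, 2120, 11140 and 6464 in the 5 comparisons, in the order gate in Bhlhe41Cre, gate in WT, genotype in CCR2low, genotype in CCR2hi and interaction. Without WT CCR2hi replicate 1 on that scale they were 14144, 14467, 5295, 9286 and 6274. The ligands lower in CCR2low than in CCR2hi were then 6 in Bhlhe41Cre and 6 in WT, with 1 and 1 higher. In CCR2hi 7 ligands were higher in Bhlhe41Cre than in WT, and the interaction had 0 higher and 1 lower.

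Under this scaling the sign turned for the gate difference in Bhlhe41Cre of Ccl3 (-1.24), Ccl4 (-0.45), Ccl5 (-0.86), Ccl6 (-0.28), Ccl7 (-0.96), Ccl9 (-0.71), Ccl12 (-0.12) and Ccl24 (-0.51), and leaving out the WT library left these at the same 2 decimals. In WT it turned for Ccl2 (-2.82, and -1.75 without that library), Ccl3 (-0.57, -0.52), Ccl4 (-0.97, -0.91), Ccl5 (-2.53, -1.70), Ccl7 (-2.01, -1.36), Ccl9 (-1.17, -0.999) and Ccl12 (-0.091, -0.22). Ccl12 turned between genotypes in CCR2hi (-0.32, -0.44), and in the interaction Ccl2 (0.68, not turned without the library), Ccl4 (0.52, 0.46), Ccl7 (1.06, 0.40), Ccl9 (0.45, 0.28) and, without the library, Ccl12 (0.10) turned.

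Other sign changes were of values not called. The gate difference of Ccl2 in Bhlhe41Cre was 0.021 with no low-count filter and ran from -0.35 to 0.046 over single libraries left out, above 0 without Bhlhe41Cre CCR2hi replicate 2. Between genotypes in CCR2low, Ccl6 (up to 0.30 with other libraries left out) was -0.019 without Bhlhe41Cre CCR2low replicate 3, -0.061 without WT CCR2low replicate 1 and -0.18 without both Bhlhe41Cre replicate 3 libraries. Ccl8 was -0.024 without Bhlhe41Cre CCR2low replicate 3, -0.16 without WT CCR2low replicate 3 and -0.19 without both Bhlhe41Cre replicate 3 libraries. Ccl7 in the interaction was 0.037 without Bhlhe41Cre CCR2hi replicate 2.

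Leaving out 1 library at a time, the interaction called 1 to 5 ligands lower (1 without Bhlhe41Cre CCR2low replicate 1, Bhlhe41Cre CCR2hi replicate 2 or 3, or WT CCR2low replicate 2, and 5 without WT CCR2hi replicate 3) and 871 to 2801 genes. The interaction called 0 ligands lower with no low-count filter, 5 with the replicate block and 1091 genes with limma, and the cause was not tested. The block moved no other count of ligands. Library size scaling called 32% of called genes higher in CCR2low in Bhlhe41Cre (2533 higher, 5384 lower), 61.8% higher in Bhlhe41Cre in CCR2hi (2994, 1851) and 19.5% in the interaction (447, 1844). With limma the shares were 31.5%, 32% for the gate in WT and 35.1% for CCR2hi, and with DESeq2 47.6% in the interaction. The depth limits Ccl24 and Ccr3, which had few counts in WT CCR2hi.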
